A study of Mus musculus with 2 samples.

Results

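The 8 sensors of foreign or misplaced nucleic acid described here were followed through the leukocytes of 2 mouse melanomas: the cytosolic RNA helicases Ddx58 (RIG-I), Ifih1 (MDA5) and Dhx58 (LGP2), the Z-form nucleic acid sensor Zbp1, the cytosolic DNA sensor Aim2, and the endosomal Toll-like receptors Tlr3, Tlr7 and Tlr9. They were taken by gene name, with no measured value in the rule, and all 8 were among the 12584 genes of the matrix (0 absent). YUMM3.3 is a transplantable melanoma line that carries the Braf V600E mutation and lacks Cdkn2a. The line itself, never exposed to targeted therapy, gave the NTT tumour, and a derivative resistant to BRAF inhibition, kept in culture with dabrafenib, gave the RTT tumour. Both lines were injected subcutaneously into C57BL/6 mice, and live CD45+ cells, the leukocytes, were sorted at day 12. With 1 tumour and 1 library a group, the effects of the line, the animal and the library preparation cannot be told apart, and cells are not replicates.

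Sequencing gave 2975 NTT cells with 19634099 unique molecular identifiers (UMIs, each standing for 1 captured transcript) and 4840 RTT cells with 44712071. A median NTT cell had 5398 UMIs and a median RTT cell 8335.5. The authors placed the cells in 16 named populations, and 7 barcodes were shared by both libraries. The infiltrates were made of different cells, since Infl_Mono and Monocyte_1 held 620 and 984 NTT cells but 94 and 99 RTT cells, whereas TAM_C1q held 17 NTT and 2001 RTT cells. By summed level, markers of other cell types could exceed those of the deposited name, and names are kept here as names only. Monocyte markers summed to more CPM (UMIs of a gene scaled by the sum over all genes of the same cells) than the markers of the name in NTT cDC2 (5406 against 3522) and NTT cDC1 (3360 against 2649), and macrophage markers to more than neutrophil markers in RTT Neutro (38423 against 15892). In NK_cells, T cell markers (Cd3e, Cd3d, Cd3g, Trac and Cd8a) summed to 6227 CPM in NTT and 4494 in RTT, above the natural killer markers at 3854 and 2270. The lists differ in genes and length, so sums alone do not contradict a name. By cells with 2 or more markers, monocyte markers also led in NTT cDC2 (227 against 155 of 279). T cell markers led in NTT NK_cells (151 against 82 of 178). The markers of the name led in NTT cDC1 (76 against 49 of 78) and RTT Neutro (27 against 21 of 29). RTT Infl_Mono cells also stood apart from NTT ones. Macrophage markers summed to 31846 CPM in RTT against 7586 in NTT Infl_Mono cells, and monocyte markers to 5193 against 12843, all 6 macrophage and 5 monocyte markers being detected in both.

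RIG-I and MDA5 bind double-stranded or otherwise non-self RNA in the cytosol and signal through MAVS on mitochondria to the kinase TBK1 and the factors IRF3 and IRF7, which switch on type I interferon genes. LGP2 binds such RNA but lacks the signalling domains and modulates the other helicases, ZBP1 binds Z-form nucleic acids and engages RIPK3, and AIM2 binds DNA and assembles an inflammasome with ASC (Pycard) and caspase-1. TLR3 reads double-stranded RNA, TLR7 single-stranded RNA and TLR9 unmethylated CpG DNA inside endosomes, to which the chaperone UNC93B1 delivers them. Several of these genes are themselves induced by interferon.

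Promoter sequence was inspected because interferon acts through a short element, the interferon-stimulated response element (ISRE). The window from 250 bases before to 50 bases after the annotated start was taken from RefSeq on GRCm38.p6 and searched on both strands for the ISRE core (GAAA and GAAA with any 2 bases between them). Windows were matched for 5 of the 8 genes (Ddx58, Ifih1, Aim2, Tlr3 and Tlr9), and those of Dhx58, Zbp1 and Tlr7 were not analysed here. Ddx58 and Ifih1 each held 1 ISRE core, and the other 3 held none. Of all 32851 windows, 3.44% held the core, as did 3.95% of the 9982 matched to genes of the matrix. A match is a description of the letters and not a shown binding site. Both matches, printed here on the strand of the gene with the core in capitals, lie within annotated exon and 5′ untranslated sequence, from base 3 after the start in Ddx58 (chr4:40239804-40239833, minus strand) and from base 33 in Ifih1 (chr2:62646206-62646233, minus strand). The Ddx58 core reads in the reverse direction.
Ddx58: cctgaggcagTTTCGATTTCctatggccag
Ifih1: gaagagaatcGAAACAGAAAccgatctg

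The 8 genes lie apart in the genome. By the GENCODE M21 annotation of GRCm38 (mm10), Ifih1 spans chr2:62595798-62646255 and Zbp1 chr2:173206612-173218923, Ddx58 spans chr4:40203773-40239828, Dhx58 chr11:100694884-100704271, Tlr3 chr8:45395665-45411080 and Tlr7 chrX:167304929-167330558, all on the minus strand. Aim2 (chr1:173350879-173466040) and Tlr9 (chr9:106222598-106226883) are on the plus strand. Genes on the opposite strand overlap Dhx58 (Dhx58os), Tlr3 (Gm45542) and Aim2 (Cadm3).

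Across all sorted cells, the 3 RNA helicases and Zbp1 were lower in the RTT library, whereas Aim2 was almost level. Ddx58 stood at 112.7 CPM in NTT and 27.7 in RTT, a log2 ratio of RTT over NTT of -2.02 (95% interval -2.13 to -1.92). Ifih1 stood at 147 and 32.1 CPM (log2 ratio -2.19, -2.29 to -2.10), and Dhx58 at 94.3 and 21.0 CPM (-2.17, -2.28 to -2.05). Zbp1 went from 358 to 50.1 CPM, the widest gap of the 8 (-2.83, -2.90 to -2.77). Here and below, intervals cover counting error only, not the difference between mice. No test was run, and a gene is called lower or higher at a 2-fold difference in CPM where at least 200 UMIs, or 100 within a class or population, back it.

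Among the receptors in endosomes, Tlr9 was lower, at 9.22 CPM in NTT and 2.39 in RTT (-1.95, -2.30 to -1.59), on only 181 and 107 UMIs. Tlr3, at 28.1 and 14.2 CPM, lay just inside the 2-fold limit at -0.99 (-1.15 to -0.82) and just past it under other scalings (-1.02). Tlr7 differed less, at 32.6 and 23.2 CPM (-0.49, -0.63 to -0.35). Aim2, at 41.7 and 37.5 CPM, had a log2 ratio of -0.15 (-0.27 to -0.03). In all, 5 of the 8 sensors were lower and 0 higher, when 10.5% of the 9537 genes tested were lower and 8.74% higher. The median log2 ratio was -1.99 for the 8 sensors and 0.09 for all genes tested.

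The share of cells with a detected Zbp1 transcript also differed at equal depth. With every cell thinned to 2000 UMIs, at least 1 Zbp1 UMI was found in 46.8% of NTT cells (1341 of 2868, exact interval 44.9 to 48.6) and in 9.50% of those of RTT (454 of 4777, 8.69 to 10.4), 107 and 63 shallower cells being left out. Without thinning the shares were 73.2% and 26.1%. Detection of several sensors in 1 cell was also rarer in RTT. Of thinned NTT cells, 34.7% held UMIs of 2 or more of the 8 sensors, against 6.59% of RTT cells. In the Infl_Mono population the shares were 59.9% (358 of 598) and 47.8% (44 of 92), and in TAM_C1q, the main RTT population, 5.66% (113 of 1995).

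Where each sensor was expressed was examined next, over the 21 combinations of population and library with at least 50 cells. The populations were clustered on expression, and the study names Zbp1 among the genes of Infl_Mono, so these levels are a description. Ddx58 was highest in Infl_Mono, with 285 CPM in RTT (interval 244 to 332) and 275 CPM in NTT, 2 levels whose intervals overlapped. It was next in NTT cDC2, at 139 CPM, with an interval below that of Infl_Mono. NTT Neutro (105.9 CPM), NK_cells (98.7), TAM_H2Ab1 (90.2), Macro (86.4) and Monocyte_1 (86.2) followed, each with an interval that overlapped that of its neighbour. The lowest levels were in Ctsk_Macro, at 12.0 CPM, and in cDC1, at 7.65 CPM in NTT and 2.42 in RTT on 5 and 1 UMIs. The RIG-I gene was therefore sparse in cDC1 of both libraries, a dendritic cell subset that takes up dying cells.

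Ifih1 and Dhx58 shared the top of that order. Ifih1 stood at 364 CPM in NTT and 323 in RTT Infl_Mono, and Dhx58 at 173 and 143 CPM, each pair with overlapping intervals. Both then ran through NTT populations, with Ifih1 at 146 CPM in TAM_H2Ab1 and 142 in cDC2, and Dhx58 at 104 in Monocyte_1 and 91.6 in TAM_H2Ab1. In NTT cDC1, Dhx58 was at 71.9 CPM (47 UMIs) and Ifih1 at 38.2 CPM (25 UMIs). The lowest level of Dhx58 was in Ctsk_Macro, at 7.62 CPM, and Ifih1 was at 9.83 CPM there and at 2.42 CPM, 1 UMI, in RTT cDC1.

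Zbp1 differed from the helicases in that its highest levels were apart from one another. It stood at 670 CPM in NTT Infl_Mono, 445 in NTT Monocyte_1 and 376 in NTT cDC2, and the intervals of the first 3 did not overlap. RTT Infl_Mono (350 CPM) and RTT Monocyte_1 (295 CPM) came next. NTT Neutro, cDC1, NK_cells, TAM_H2Ab1, TAM_Spp1 and Macro held between 206 and 267 CPM, with overlapping neighbours. Every NTT population with at least 50 cells held 110.6 CPM of Zbp1 or more. In RTT it was at 61.9 CPM in TAM_Spp1, 52.0 in cDC2, 46.5 in TAM_C1q, 31.8 in TAM_cycling and 9.83 in Ctsk_Macro.

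**Figure D1:**
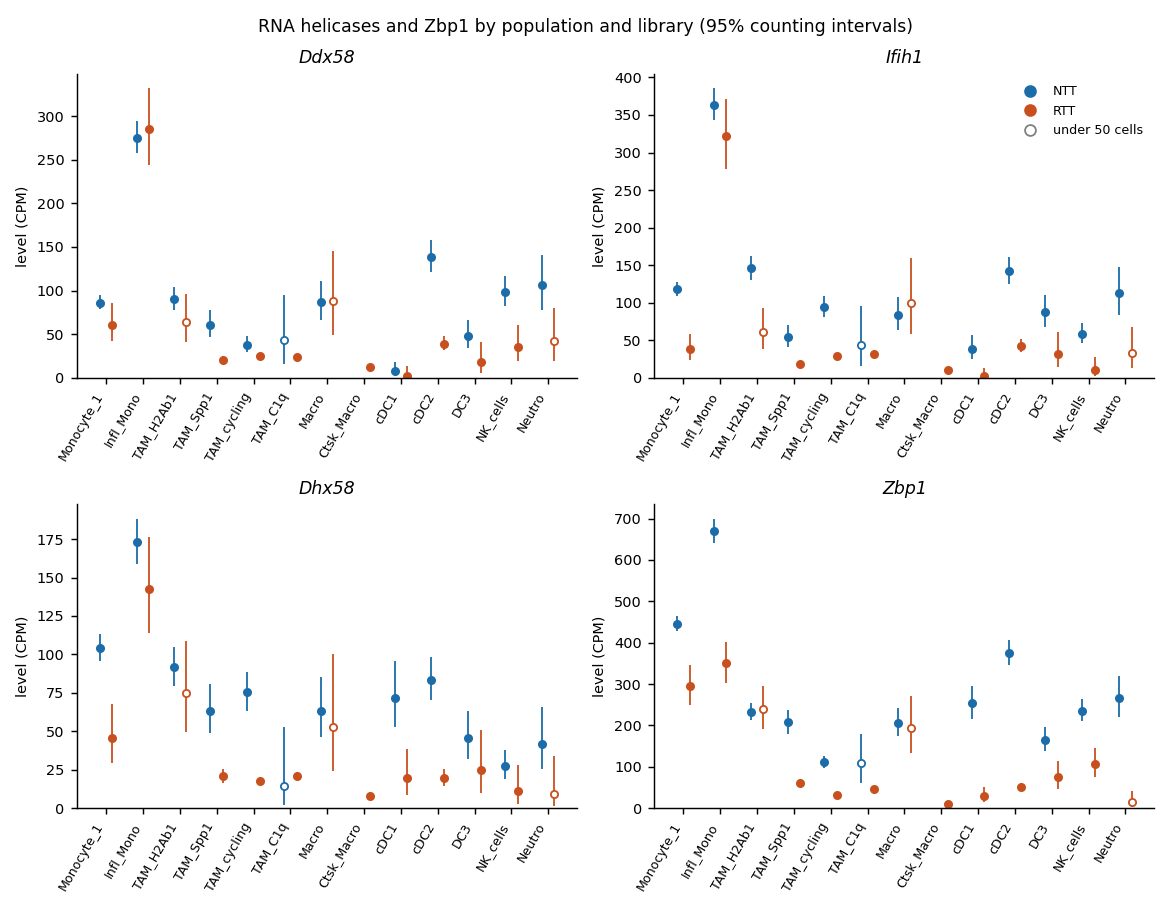
Levels of Ddx58, Ifih1, Dhx58 and Zbp1 in CPM (vertical axis, from 0) in 13 of the 16 populations of the NTT (blue) and RTT (orange) library, with exact 95% Poisson intervals; open points rest on fewer than 50 cells. Infl_Mono holds the highest level of each gene in NTT, and the RTT point of Infl_Mono overlaps it for the 3 helicases but not for Zbp1 (670 against 350 CPM).

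Aim2 had the flattest profile. Its levels ran from 73.1 CPM in NTT NK_cells to 15.8 CPM in NTT Macro (11 UMIs), and every interval in the order overlapped that of the next. The intervals at the 2 ends did not overlap (59.3 to 89.2 and 7.91 to 28.3 CPM). RTT Infl_Mono (66.2 CPM), RTT NK_cells (62.4), RTT cDC2 (57.5) and NTT cDC2 (56.3) were near the top. Ctsk_Macro was again low, at 24.6 CPM on 100 UMIs. In the large macrophage populations Aim2 was at 36.6 CPM (TAM_C1q, RTT) and at 38.5 and 35.8 CPM (TAM_cycling, RTT and NTT).

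Tlr3 had its highest level in cDC1, at 177 CPM in NTT (116 UMIs) and 184 CPM in RTT (76 UMIs), with overlapping intervals. The next level, in RTT Infl_Mono, was 54.3 CPM, below both. At 2000 UMIs a cell, 28.2% of NTT cDC1 (22 of 78) and 33.3% of RTT cDC1 (18 of 54) held a Tlr3 UMI, against 0 of 164 NTT and 0 of 41 RTT NK_cells, which allow shares of up to 1.83% and 7.32%, the limit being 3 cells of the total. Without thinning, 2 of 178 NTT and 0 of 51 RTT NK_cells held one, and 52.6% and 64.3% of cDC1 did. Median depths were 7278 and 6738 UMIs in cDC1 and 5358.5 and 3967 in NK_cells. Of all NTT Tlr3 UMIs, 21.0% came from cDC1, which held 3.33% of the UMIs of the library. Infl_Mono and Monocyte_1 supplied more, 26.1% and 22.6%, while holding 16.0% and 27.6% of all UMIs. In RTT, cDC1 supplied 12.0% of Tlr3 UMIs with 0.924% of all UMIs, against 41.6% from TAM_C1q and 26.2% from TAM_cycling.

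Tlr7 followed monocytes and some macrophages. It was at 59.5 CPM in NTT Infl_Mono, 52.6 in NTT TAM_H2Ab1 and 49.2 in RTT Infl_Mono, with overlapping intervals. TAM_C1q and TAM_cycling of RTT held 30.6 and 28.9 CPM and supplied 53.8% and 33.9% of the RTT Tlr7 UMIs, while holding 40.8% and 27.3% of all RTT UMIs. Dendritic cells and Ctsk_Macro were low, with 2.95 CPM in Ctsk_Macro, 2.35 in RTT cDC2 and 2.42 in RTT cDC1. In thinned Infl_Mono cells 9.36% of NTT and 12.0% of RTT cells held a Tlr7 UMI, and in NK_cells 0.610% (1 of 164) of NTT and 0 of 41 RTT cells did.

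Tlr9 was sparse everywhere. Its highest level was 17.5 CPM in NTT Infl_Mono (55 UMIs), followed by TAM_H2Ab1 (13.2 CPM, 29 UMIs), Monocyte_1 (11.3 CPM, 61 UMIs) and cDC2 (9.38 CPM, 16 UMIs), all in NTT. RTT Infl_Mono held 0 Tlr9 UMIs, with an exact interval of up to 6.26 CPM, and the UMIs of both libraries were too few there for a call. RTT DC3, cDC1, NK_cells and Ctsk_Macro also held 0. Plasmacytoid dendritic cells and B cells are known for TLR9 and TLR7 in mice, and their markers were looked for. Of NTT cells, 37 carried 2 or more of 6 plasmacytoid markers and held 4 of the 181 Tlr9 UMIs and 13 of the 640 Tlr7 UMIs; the 12 such RTT cells held 0 of 107 and 5 of 1037. The 6 NTT and 3 RTT cells with 2 or more B cell markers held 0 Tlr9 UMIs and 4 and 0 Tlr7 UMIs.

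**Figure D2:**
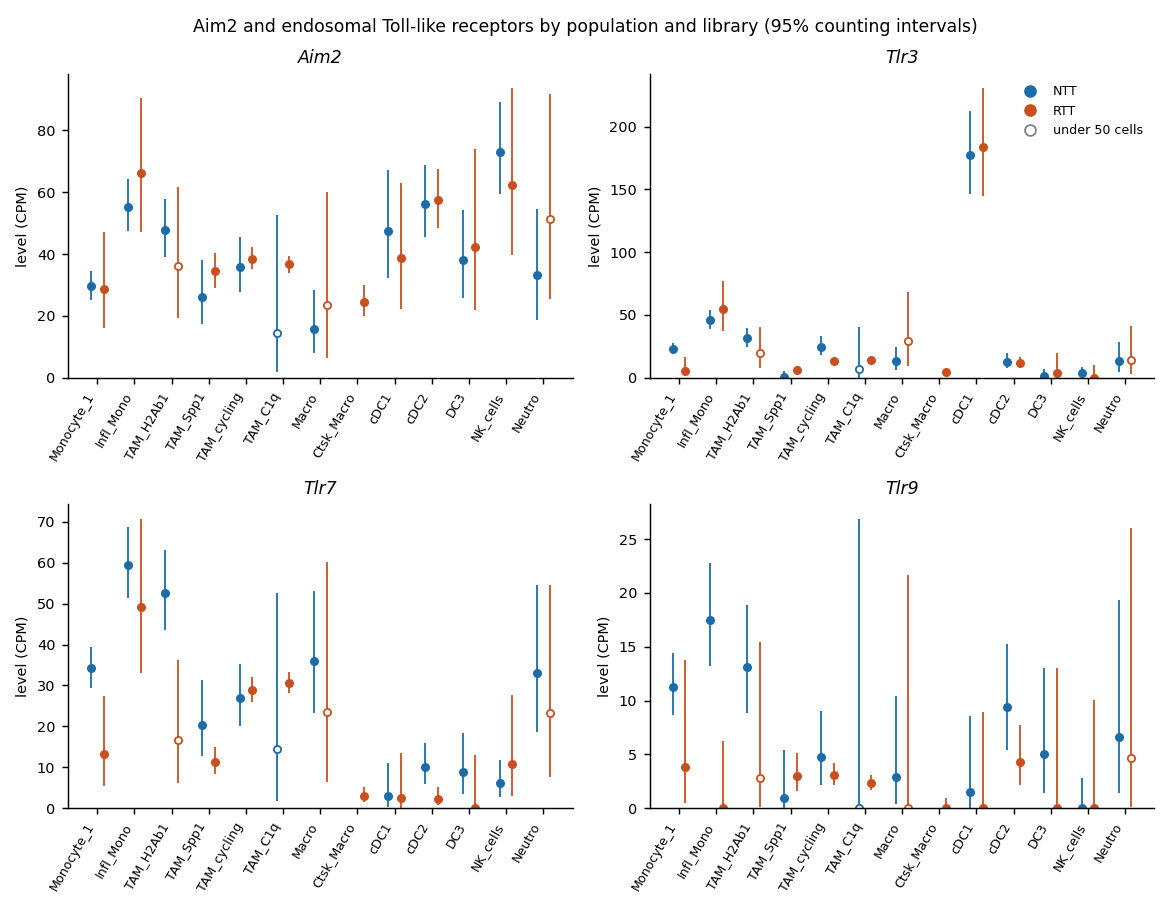
Levels of Aim2, Tlr3, Tlr7 and Tlr9 in CPM (vertical axis, from 0, a scale of its own in each panel) by population in the NTT (blue) and RTT (orange) library, with exact 95% Poisson intervals; open points rest on fewer than 50 cells. Tlr3 stands out in cDC1 of both libraries (177 and 184 CPM), and Tlr9 stays at or below 17.5 CPM. Among points on at least 50 cells, Aim2 runs from 73.1 to 15.8 CPM.

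Because the libraries held different populations, the difference over all cells was divided into a part that went with population shares and a part that went with levels inside populations. For Ddx58, 68.9% of the difference of -85.0 CPM went with the shares, for Zbp1 58.4% of -307 CPM, for Ifih1 56.5% of -115 CPM and for Dhx58 55.9% of -73.3 CPM. Both parts were thus sizeable for each of these genes under mean weights. No minimum of cells was applied in this division. TAM_C1q held 0.699% of NTT and 40.8% of RTT UMIs, and its NTT level rested on 17 cells. Those cells held 6 Ddx58, 6 Ifih1, 2 Dhx58 and 15 Zbp1 UMIs, so the percentages are approximate. In the NTT library Infl_Mono alone, with 16.0% of all UMIs, supplied 39.2% of the Ddx58, 39.7% of the Ifih1, 29.4% of the Dhx58 and 30.0% of the Zbp1 UMIs. In RTT it held 1.32% of all UMIs and still 13.6% of the Ddx58 and 13.2% of the Ifih1 UMIs.

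Within macrophages, 5 of 8 sensors were lower in RTT (6.96% of 9608 genes tested were lower) and 0 were higher (5.28% were). Ddx58 went from 66.9 to 23.0 CPM (-1.54, -1.71 to -1.37), Ifih1 from 103.8 to 27.8 CPM (-1.90, -2.05 to -1.76) and Dhx58 from 76.5 to 19.3 CPM (-1.99, -2.16 to -1.82). Zbp1 went from 183 to 42.3 CPM (-2.12, -2.23 to -2.0), and Tlr9 from 6.88 to 2.36 CPM (-1.54, -2.09 to -0.97) on 41 and 93 UMIs. The DNA sensor Aim2 stood at 35.7 CPM in both (log2 ratio 0.00, -0.21 to 0.21), Tlr3 at 21.3 and 12.4 CPM (-0.78) and Tlr7 at 36.1 and 24.9 CPM (-0.53). Macrophage markers summed to 26748 CPM in the NTT and 37495 in the RTT class, and monocyte markers to 2567 and 1300. The macrophage populations were not the same in both libraries, so single populations were compared as well.

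TAM_Spp1 and TAM_cycling were the macrophage populations with at least 50 cells in each library. In TAM_Spp1, 4 of the 5 sensors with enough UMIs were lower and 0 higher (13.3% of genes tested were lower and 13.3% higher). There Ddx58 went from 60.3 to 20.6 CPM (-1.55), Ifih1 from 54.5 to 18.4 (-1.57), Dhx58 from 63.2 to 20.6 (-1.61) and Zbp1 from 207 to 61.9 (-1.74), while Aim2 was at 26.3 and 34.4 CPM (0.39, -0.21 to 1.04). The cells of that name differed in markers too, with monocyte markers at 7384 CPM in NTT and 2909 in RTT and macrophage markers at 7753 and 20681, all detected in both, and their part in the result was not tested. In TAM_cycling, 3 of 7 were lower and 0 higher (4.7% and 5.49% of genes tested were), namely Ifih1 (93.8 and 29.5 CPM, -1.67), Dhx58 (75.3 and 17.7, -2.09) and Zbp1 (110.6 and 31.8, -1.80). Ddx58, at 37.9 and 24.5 CPM, did not reach 2-fold there (-0.63, -1.01 to -0.24). In TAM_H2Ab1, with 36 RTT cells, Zbp1 was at 232 CPM in NTT and 239 in RTT, and in Macro, with 26 RTT cells, at 206 and 194 CPM. The helicases in Macro stayed within 2-fold too, at 86.4 and 88.0 CPM for Ddx58, 83.5 and 99.8 for Ifih1 and 63.4 and 52.8 for Dhx58. In TAM_H2Ab1, Ddx58 was at 90.2 and 63.8 CPM and Dhx58 at 91.6 and 74.9. Ifih1 was at 146 and 61.1 CPM there, past 2-fold, on 321 and 22 UMIs. By these levels, neither Zbp1 nor the helicases reached 2-fold in every macrophage population. Both names were under the minimum of 50 cells in RTT, so no call was made. Intervals were wide there, such as 24.1 to 100 CPM for Dhx58 in RTT Macro, on 9 UMIs. Ctsk_Macro, which occurred in RTT alone and carried osteoclast markers such as Ctsk and Acp5 at a sum of 48651 CPM, held no more than 24.6 CPM of any of the 8 sensors.

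Dendritic cells also had lower helicases and Zbp1 in RTT, with 4 of the 6 sensors that had enough UMIs lower and 0 higher (7.8% and 6.14% of 6271 genes tested were). Ddx58 went from 88.9 to 32.6 CPM (-1.45, -1.79 to -1.12), Ifih1 from 106.7 to 36.3 (-1.56, -1.87 to -1.25), Dhx58 from 71.5 to 20.0 (-1.84, -2.26 to -1.43) and Zbp1 from 298 to 51.0 (-2.54, -2.79 to -2.30). Aim2 was at 49.9 and 53.8 CPM (0.11, -0.21 to 0.43) and Tlr3 at 44.1 and 32.9 CPM (-0.42, -0.80 to -0.05). Tlr7, with 26 and 7 UMIs, and Tlr9, with 21 and 11, were too sparse to be called. Monocyte markers, all 5 detected, summed to 3991 CPM in the NTT and 911 in the RTT class, and their part in these differences was not tested. The conventional subsets differed in which sensors they held.

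In cDC2, which made up 9.38% of NTT and 8.53% of RTT cells, 4 of 5 sensors were lower and 0 higher (7.05% and 5.63% of genes tested were). Ddx58 went from 139 to 39.1 CPM (-1.83, -2.18 to -1.49), Ifih1 from 142 to 42.2 (-1.75), Dhx58 from 83.2 to 19.6 (-2.09) and Zbp1 from 376 to 52.0 (-2.85, -3.13 to -2.58), while Aim2 stood at 56.3 and 57.5 CPM (0.03, -0.35 to 0.42). Cells named cDC2 also differed in markers. All 5 monocyte markers were detected in both libraries and summed to 5406 CPM in NTT, where 227 of 279 cells held 2 or more of them, and to 941 in RTT, where 195 of 413 did. The cDC2 markers summed to 3522 and 5239 CPM and the 6 plasmacytoid markers to 1006 and 257. The part of these markers in the lower sensors was not tested. In cDC1, 1 of the 2 sensors with enough UMIs was lower and 0 higher (5.97% and 2.73% of genes tested were), in that Zbp1 went from 254 to 29.1 CPM on 166 and 12 UMIs (-3.13, -4.11 to -2.28). Monocyte markers summed to 3360 CPM in NTT and 1116 in RTT cDC1, and their part was not tested. Tlr3, the other sensor, had a log2 ratio of 0.05 with an interval of -0.38 to 0.48. In DC3, only Zbp1 had enough UMIs, and it went from 165 to 74.2 CPM (-1.15, -1.89 to -0.48; 6.48% of genes tested were lower and 3.64% higher). Monocyte markers in DC3 were at 1456 and 343 CPM, with Chil3 and Vcan at 0 in RTT, and macrophage markers at 782 and 4754, and their part was not tested.

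NK_cells gave 3 sensors with enough UMIs, 2 of them lower and 0 higher (7.62% and 2.9% of genes tested were). Ddx58 went from 98.7 to 35.3 CPM on 131 and 13 UMIs (-1.49, -2.43 to -0.66) and Zbp1 from 236 to 105.8 CPM (-1.16, -1.68 to -0.67). Aim2 stood at 73.1 and 62.4 CPM (-0.23, -0.95 to 0.44). The difference of Zbp1 and Ddx58 was thus also seen outside the myeloid names, on 51 RTT cells. Macrophage markers summed to 342 CPM in NTT and 3241 in RTT NK_cells and monocyte markers to 1671 and 1085, and their part was not tested.

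**Figure D3:**
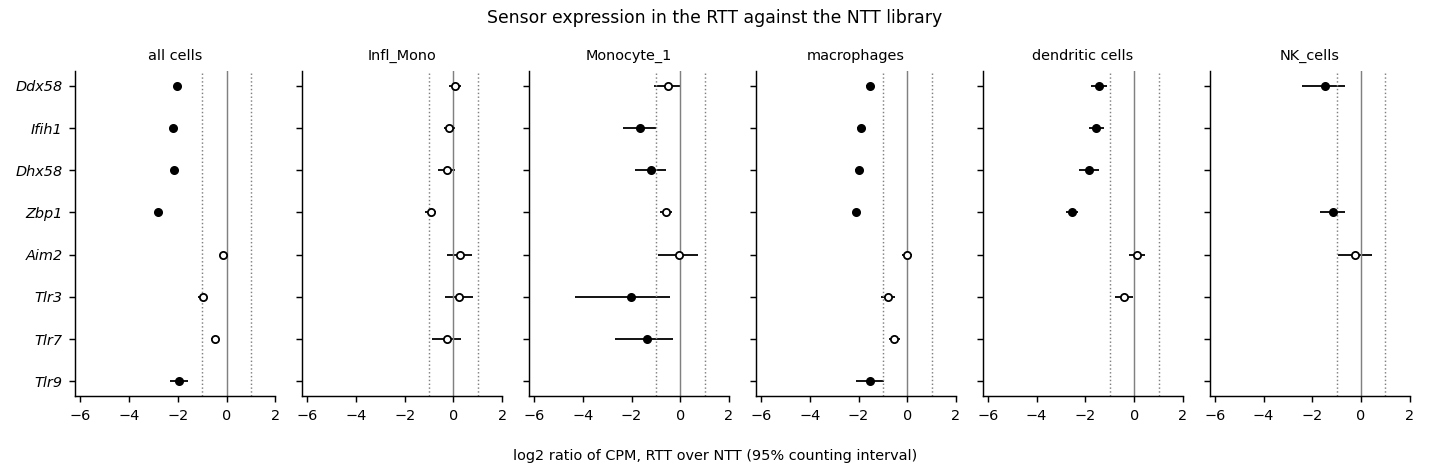
Log2 ratio of CPM, RTT over NTT (horizontal axis), for the 8 sensors over all cells and in 5 groups of cells, with exact 95% counting intervals. Filled points lie at or beyond a 2-fold difference, open points within it, dotted lines mark 2-fold, and sensors with too few UMIs are left out. The helicases and Zbp1 lie to the left in macrophages and dendritic cells and near 0 in Infl_Mono for the helicases, while Aim2 stays near 0 throughout. Cells are named Infl_Mono partly for interferon-stimulated genes, so near-equal levels there are a description.

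Monocytes, read here under names that themselves rest on expression, departed from this picture. Over all monocytes, 1 of 8 sensors was lower in RTT and 0 higher (7.28% and 3.89% of 6938 genes tested were), namely Tlr9, with 116 and 2 UMIs (-2.93, -6.0 to -1.05). Ddx58 stood at 155 CPM in NTT and 176 in RTT (0.19, -0.04 to 0.40), Ifih1 at 207 and 185 CPM (-0.16, -0.38 to 0.04), Dhx58 at 129 and 95.3 CPM (-0.44) and Zbp1 at 527 and 319 CPM (-0.72, -0.88 to -0.57). The merged values differed from those of Infl_Mono and Monocyte_1 taken apart, and these populations were mixed in different parts. Infl_Mono held 3143601 of the 8598092 monocyte UMIs in NTT and 588902 of 1133483 in RTT. For Ddx58 the merged ratio lay above those of Infl_Mono (0.05) and Monocyte_1 (-0.50).

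In Infl_Mono, 0 of the 7 sensors with enough UMIs were lower or higher (9.64% and 6.21% of genes tested were). The study identified inflammatory monocytes by their high interferon-stimulated genes, and several sensors are induced by interferon. Cells of both libraries thus carry this name partly for such genes, so near-equal levels inside it are a description. Ddx58 stood at 275 and 285 CPM (0.05, -0.20 to 0.29), Ifih1 at 364 and 323 CPM (-0.17, -0.40 to 0.05) and Dhx58 at 173 and 143 CPM (-0.28, -0.63 to 0.05). Zbp1 went from 670 to 350 CPM, short of 2-fold on this scale (-0.94, -1.15 to -0.73) and past it under TMM scaling (-1.06) and under DESeq2 size factors (-1.03). In Monocyte_1, 4 of 7 were lower and 0 higher (11.6% and 3.1% of genes tested were), led by Tlr3 on 125 and 3 UMIs (-2.02, -4.31 to -0.43). Ifih1 went from 118 to 38.1 CPM (-1.64, -2.36 to -1.0), Dhx58 from 104 to 45.7 CPM (-1.19, -1.85 to -0.60) and Tlr7 from 34.2 to 13.3 CPM on 185 and 7 UMIs (-1.36, -2.69 to -0.29). There Ddx58 was at 86.2 and 60.9 CPM (-0.50, -1.07 to 0.02), and at -1.20 once cells were thinned to 2000 UMIs. Monocyte markers summed to 6483 CPM in NTT and 4408 in RTT Monocyte_1, and macrophage markers to 17580 and 16519.

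The RTT Infl_Mono cells were then divided by complement C1q, a macrophage product, since their macrophage markers were high. Cells with C1qa, C1qb and C1qc summing to at least 1000 CPM made up 48 of 94 RTT (51.1%) and 200 of 620 NTT Infl_Mono cells (32.3%). This division was added after the values had been seen. The 48 RTT cells held 160 of the 168 Ddx58 UMIs, 172 of 190 Ifih1 UMIs, 77 of 84 Dhx58 UMIs, all 32 Tlr3 UMIs and 142 of 206 Zbp1 UMIs. They also held 69.3% of all UMIs of RTT Infl_Mono. The helicases, at 90.5% to 95.2%, were above that share, and Zbp1, at 68.9%, was at it.

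Among cells below 1000 CPM of C1q, Ddx58 stood at 238 CPM in 420 NTT cells and 44.3 CPM in 46 RTT cells, on 492 and 8 UMIs (-2.42, -3.64 to -1.43). Ifih1 stood at 268 and 99.7 CPM (-1.43, -2.19 to -0.75) and Dhx58 at 143 and 38.8 CPM (-1.89, -3.21 to -0.83), while Zbp1 was at 601 and 354 CPM (-0.76). Of the 6 sensors with at least 100 UMIs in these cells, 4 were lower, the helicases among them, and 0 higher (12.1% and 2.59% of genes tested were). The other lower sensor was Aim2, on 109 and 4 UMIs with an interval that includes 0 (-1.25, -3.15 to 0.15). Among cells with C1q, Ddx58 stood at 349 and 392 CPM (0.17, -0.11 to 0.44), Ifih1 at 548 and 421 CPM (-0.38), Dhx58 at 230 and 189 CPM (-0.29) and Zbp1 at 804 and 348 CPM (-1.21). Within RTT Infl_Mono, the helicases were higher with C1q than without it, while Zbp1 was at 348 and 354 CPM. NTT Infl_Mono cells with C1q held higher levels of all 4 genes than those without it. Monocyte_1 did not share this order, since its NTT cells with and without C1q held 77.4 and 110.7 CPM of Ddx58, 116 and 125 CPM of Ifih1, 96.7 and 125 CPM of Dhx58 and 426 and 498 CPM of Zbp1, with intervals that overlapped for Ifih1. There the ratio of RTT over NTT with C1q was -0.87 for Ddx58, -1.90 for Ifih1, -1.10 for Dhx58 and -0.95 for Zbp1, and without C1q it was -0.16, -1.25, -1.43 and -0.15. RTT Infl_Mono cells with C1q were deeper, with a median of 7874 UMIs against 3593 in those without, and 4922 and 4732 in NTT. The part of depth, or of doublets of a monocyte and a macrophage, in this pattern was not tested. Leaving out C1q cells from all monocytes left 741 NTT and 95 RTT cells, in which 4 of the 6 sensors with at least 100 UMIs were lower (Ddx58, Ifih1, Dhx58 and Aim2) and 0 higher (10.1% and 1.85% of genes tested were). Aim2 rested on 144 and 7 UMIs there (-1.09, -2.43 to -0.01).

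**Figure D4:**
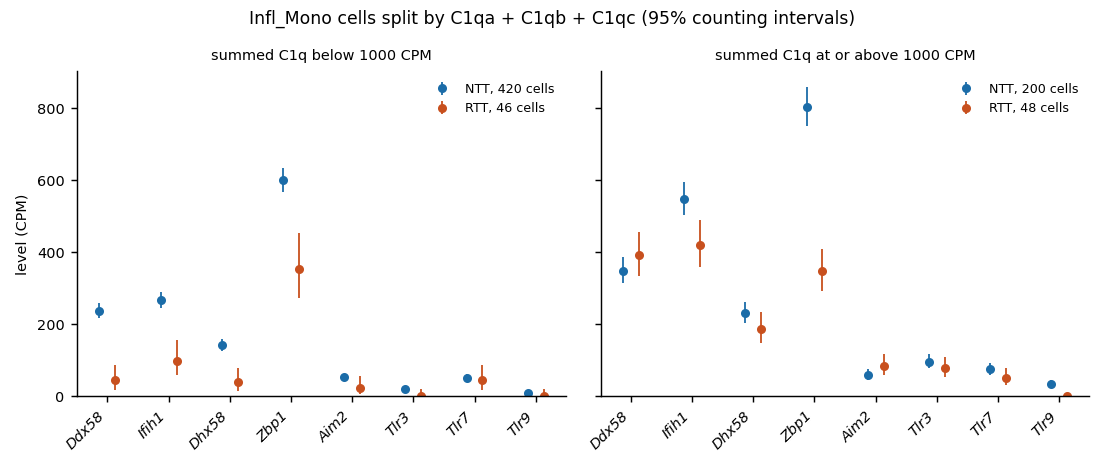
Levels of the 8 sensors in CPM (vertical axis, from 0) in Infl_Mono cells of NTT (blue) and RTT (orange), split by the summed level of C1qa, C1qb and C1qc below (left) and at or above 1000 CPM (right), with exact 95% Poisson intervals. Ddx58 is at 238 and 44.3 CPM on the left and at 349 and 392 CPM on the right.

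The pathways around the sensors were described by lists of textbook members. Of 14 genes of helicase signalling with enough UMIs, 4 were lower over all cells and 0 higher, with a median log2 ratio of -0.44. Of all 9537 genes tested, 10.5% were lower and 8.74% higher. Irf7, the interferon-induced transcription factor of the pathway, had the largest ratio, from 732 to 78.1 CPM (-3.23, -3.28 to -3.17). The adaptor Mavs was at 12.4 and 16.6 CPM (0.42, 0.20 to 0.63), Irf3 at 36.1 and 43.7 CPM (0.28) and the kinase Tbk1 at 43.3 and 40.5 CPM (-0.10, -0.22 to 0.02). The 3 helicases and Irf7 were thus 4.07-fold to 9.36-fold lower, and the adaptor, the kinase and Irf3 differed by less than 2-fold. Irf7 was lower in monocytes (-1.02), macrophages (-2.41) and dendritic cells (-2.83) alike. Monocyte values of this and later pathway genes merge Infl_Mono and Monocyte_1, which were mixed in different parts and not read apart.

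Of 22 genes of endosomal Toll-like receptor trafficking and signalling, 3 were lower and 0 higher (median -0.28). That count is near the share over all genes tested, 10.5% lower and 8.74% higher. The chaperone Unc93b1 was at 549 and 464 CPM (-0.24), the adaptor Myd88 at 232 and 123.5 CPM (-0.91), Ticam1, the adaptor of TLR3, at 14.6 and 9.93 CPM (-0.55) and the transcription factor Irf5 at 157 and 127 CPM (-0.31). The endosomal peptide transporter gene Slc15a3 was the lowest of this list, from 252 to 94.1 CPM (-1.42), and the endosomal protease gene Ctsl the highest, from 787 to 1427 CPM (0.86).

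Cytosolic DNA sensing held more lower genes, 10 of 15, with 0 higher and a median of -2.31 (10.5% and 8.74% of genes tested were lower and higher). Of the 10, 9 belong to the interferon-inducible Ifi200 family next to Aim2 on chromosome 1, with Ifi205 the lowest, from 374 to 19.5 CPM (-4.26), and reads shared among such copies can alter their values. Samhd1, a nucleotide hydrolase that restricts viruses, went from 891 to 175 CPM (-2.35). The cyclic dinucleotide synthase Cgas was at 42.2 and 27.4 CPM (-0.62) and its receptor Tmem173 (STING) at 198 and 166 CPM (-0.26). Rnaseh2b, a subunit of a nuclease that clears RNA:DNA hybrids, was at 22.1 and 42.7 CPM (0.95). Trex1 was not analysed here. Aim2 itself, at -0.15, thus differed from the Ifi200 genes listed beside it.

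In the inflammasome list of AIM2, 2 of 8 genes were lower (median -0.70), when 10.5% of genes tested were. Casp4, a caspase that senses lipopolysaccharide, was lowest (140 to 38.0 CPM, -1.89). Ninj1, which ruptures the membrane of dying cells, was highest (113 and 127 CPM, 0.17). The adaptor Pycard was at 561 and 511 CPM (-0.14), Casp1 at 115.9 and 74.4 CPM (-0.64) and the pore protein gene Gsdmd at 108.9 and 83.1 CPM (-0.39). Pycard and Aim2 were thus both near level over all cells. Pycard was at -0.96 in macrophages and 0.43 in monocytes.

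Of the 6 partners of ZBP1, 1 was lower (median -0.38), when 10.5% of genes tested were. Mlkl, the executor of necroptosis, went from 26.1 to 9.53 CPM (-1.45), its kinase Ripk3 was at 55.8 and 36.6 CPM (-0.61), and Fadd at 13.1 and 20.2 CPM (0.62). Genes of other RNA-binding effectors, which act on double-stranded RNA or mark it as foreign, were lower in 13 of 15 cases (median -2.42). Among all genes tested the share was again 10.5%. Oas3, which makes the second messenger that activates RNase L, went from 114.1 to 7.43 CPM (-3.94), the editing enzyme Adar from 59.7 to 17.8 CPM (-1.75) and the RNA-activated kinase Eif2ak2 from 109.1 to 41.1 CPM (-1.41). The helicase Dhx9 was highest in the list, at 69.3 and 80.7 CPM (0.22). In monocytes 2 of 14 of these effectors were lower, against 13 of 16 in macrophages and 11 of 13 in dendritic cells. Of all genes tested, 7.28%, 6.96% and 7.8% were lower in these classes. The monocyte class merges Infl_Mono and Monocyte_1, mixed in different parts in NTT and RTT, and they were not read apart here.

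In the type I interferon axis, 5 of 9 genes were lower (median -1.23), when 10.5% of genes tested were. The receptor genes Ifnar1 (90.7 and 101.2 CPM, 0.16) and Ifnar2 (358 and 440 CPM, 0.30) did not reach 2-fold, while the transcription factor Stat2 (181 to 27.2 CPM, -2.73) did. Stat2 was lower in monocytes (-1.03), macrophages (-2.08) and dendritic cells (-1.93). Interferon genes Ifnb1 and Ifna4 were not analysed here.

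**Figure D5:**
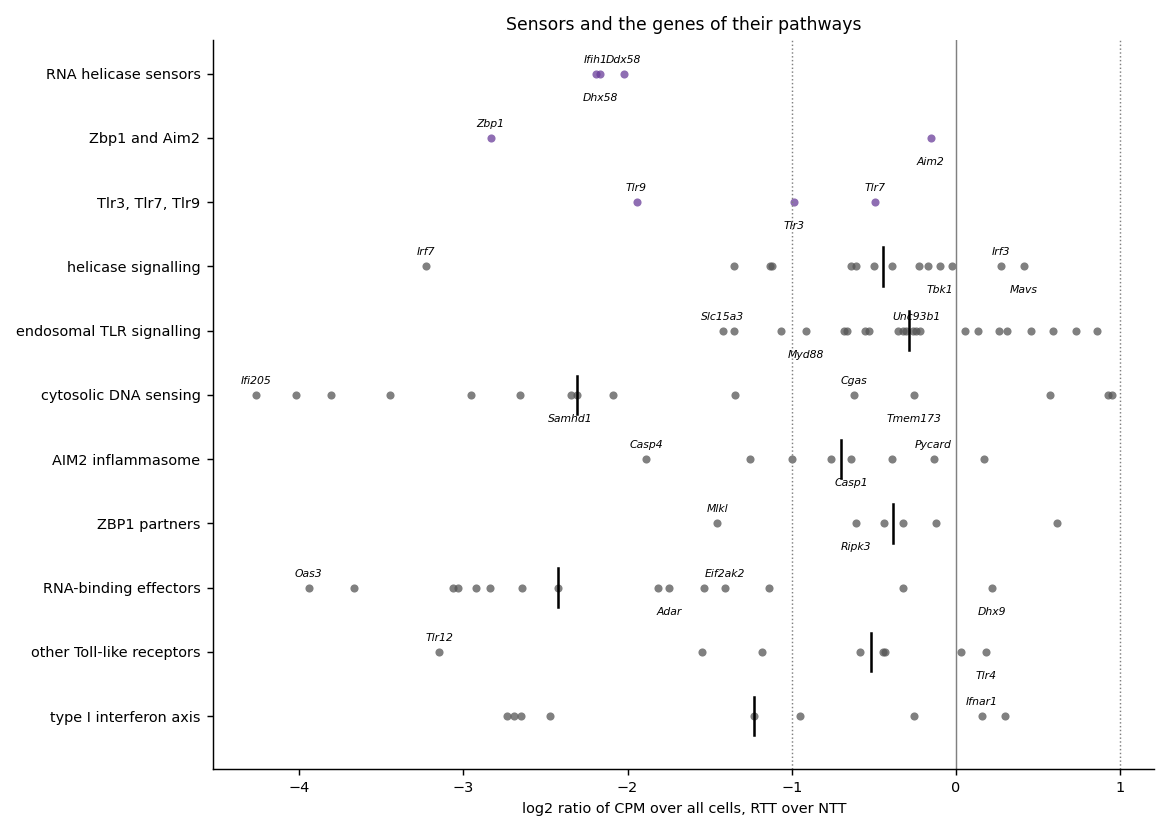
Log2 ratio of CPM over all cells, RTT over NTT (horizontal axis), for each gene with at least 200 UMIs (points), by list; purple rows are the 8 sensors, short black bars are list medians and dotted lines mark 2-fold. Cytosolic DNA sensing and RNA-binding effectors have medians of -2.31 and -2.42, whereas Mavs, Irf3, Tbk1, Ifnar1 and Aim2 lie near 0.

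The genes whose profile was most like that of each sensor were sought over the same 21 combinations of population and library, by Pearson correlation of log2(CPM + 10). The points share 2 libraries, so the values describe likeness only. Ddx58 was most like Ifi206 (r = 0.93), Slfn8 (0.91) and Ddx60 (0.91), Ifih1 most like Xaf1 (0.95), Rnf213 and Rtp4 (both 0.92), Dhx58 most like Tor1aip1 (0.94), Rnf213 (0.93) and Ifi204 (0.92), and Zbp1 most like Parp14 (0.94), Slfn1 and Oas3 (both 0.93). Most of these are known interferon-stimulated genes. Aim2 had no gene as like it, the closest being Hltf and Xrn1 (both 0.75) and Phf6 (0.74). Tlr3 was most like Wdfy4 (0.85), a cDC1 gene needed for cross-presentation, and Atp6v0a2 and Cpne3 (both 0.84). Tlr7 was most like Dennd1a (0.93), Fgd4 (0.91) and its neighbour Tlr8 (0.90), and Tlr9 most like Il18bp (0.81), Abcg1 and Gbp2b (both 0.78).

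Among the sensors themselves, the helicases were most alike for Ddx58 and Ifih1 (r = 0.89) and for Ifih1 and Dhx58 (0.89), and Zbp1 was closest to Dhx58 (0.85). Tlr7 stood between 0.63 and 0.69 with the helicases. Aim2 lay between -0.11 and 0.26 with the other 7 sensors, and Tlr3 between -0.12 and 0.39.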

How the data were processed

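The authors prepared droplet libraries with 10x 3′ chemistry, processed them with Cell Ranger 6.1.1 against mm10, and deposited a matrix of raw UMI counts, not normalised, for genes found in each of several experiments, with a name for each cell. Counts per cell equalled the deposited totals in all 7815 cells, and 0 columns were left unused. The sources used here state no removal of doublets, and no caller was run.

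UMIs were summed per gene over the cells compared and scaled to CPM. CPM carry exact Poisson intervals, ratios exact binomial intervals of both counts and shares Clopper-Pearson intervals, all at 95%. A gene with 0 UMIs was set to a floor of 3 UMIs over the library in ratios, and a share of 0 was limited at 3 cells of the total. A difference of 2-fold (log2 ratio of 1) was called with at least 200 UMIs over all cells or 100 within cells of one name or class, counted anew wherever cells were left out but not after thinning. Monocytes were Monocyte_1, Monocyte_3 and Infl_Mono, macrophages all TAM names with Macro and Ctsk_Macro, and the dendritic class was DC3, cDC1 and cDC2. Cells were thinned to 2000 UMIs, with a fixed seed, for shares. With 1 library per group no test was run. The division by population used shares of UMIs and the mean of both libraries' levels as weights, and Ctsk_Macro, absent from NTT, kept its RTT level in both. Likeness was computed over genes with at least 500 UMIs.

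Named genes were the 8 sensors, a fixed panel of pathway genes, the gene with the largest ratio in each direction in each list, and the 3 genes most like each sensor, and 1 gene of the panel and 1 motif are not reported here. The sensors were taken by name, but they, the lists and the rules were chosen with earlier results of these data known. Python 3.11.15 was used with scipy 1.17.1, pandas 2.3.3, numpy 2.4.6 and matplotlib 3.10.9, and scaling alternatives used edgeR 4.0.16 and DESeq2 1.42.0 in R 4.3.3. The scripts were tested on simulated counts.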

Additional observations from a re-analysis of the deposited data

How the results depend on the processing

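The count of sensors lower by 2-fold in RTT was 5 over all cells, 5 in macrophages and 4 in dendritic cells, and under TMM scaling, DESeq2 size factors, a mean of per-cell CPM, thinning, a minimum of 1500 genes, no minimum of UMIs and the exclusion of the 5% deepest cells it stayed within 1.5 times of each. Tlr3 was the gene gained over all cells (-1.02 under both scalings, -1.0 with at least 1500 genes). The count in monocytes was 1 and was 4 without cells of C1q at 1000 CPM or more (Tlr3 and Tlr9 had fewer than 100 UMIs there), 0 in Infl_Mono alone and 4 in Monocyte_1 alone, as these choices keep different cells. Of 316 ratios of single sensors under an alternative, 280 moved by less than their counting interval and 36 by more. Scaling shifted all genes by at most -0.12 on the log2 scale (Infl_Mono, TMM). With NTT levels as weights, the part that went with population shares was 71.6% for Ddx58, 68.5% for Ifih1, 68.3% for Dhx58, 70.0% for Zbp1 and 98.7% for Tlr9, and with RTT levels it was 66.2%, 44.5%, 43.6%, 46.7% and -1.24%, against 48.7% for Tlr9 with mean weights, so the division for Tlr9 is not fixed by these data. The share of cells with a Zbp1 UMI was 28.9% in NTT and 5.17% in RTT at 1000 UMIs and 73.2% and 26.1% without thinning. No paired analysis was possible because each group held 1 library. Values at low counts, such as Tlr9 and RTT cDC1, are limited by depth, and no value says how mice of one group differ.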

Other observations

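The other Toll-like receptors, which sense lipids, proteins and microbial RNA and are not among the 8 sensors, were read in the same cells. Of 8 with enough UMIs over all cells, 3 were lower in RTT and 0 higher, with a median log2 ratio of -0.51 (10.5% and 8.74% of genes tested were). Tlr12, which senses profilin, had the largest ratio, from 14.9 to 1.68 CPM (-3.15, -3.53 to -2.78), and reached -4.18 in macrophages on 184 and 67 UMIs. Tlr4, the lipopolysaccharide receptor gene, was at 43.4 and 49.4 CPM (0.19). In monocytes, 4 of 7 were lower, in macrophages 2 of 8 and in dendritic cells 1 of 3 (7.28%, 6.96% and 7.8% of genes tested were).

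Cytosolic DNA sensing also differed by class of cell. In macrophages 10 of 15 genes of the list were lower (median -1.5) and in dendritic cells 10 of 15 (-1.57), when 6.96% and 7.8% of genes tested were. In monocytes 1 was lower and 1 higher (-0.25), near the shares of 7.28% and 3.89% among genes tested. For this list and the other Toll-like receptors, the monocyte class merges Infl_Mono and Monocyte_1. These were mixed in different parts in NTT and RTT and were not read apart. Samhd1 was at -0.69 in monocytes, -1.70 in macrophages and -1.65 in dendritic cells, and Ifi205 was lower in all 3 classes, at -1.77, -3.20 and -2.69. Cgas and Tmem173 did not reach 2-fold in any class, the widest being -0.47 for Cgas in dendritic cells and -0.37 for Tmem173 in macrophages.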
